A study of Mus musculus with 4 samples.

Results

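The transcripts described here are those of 10 genes of the NF-kB system, taken by gene symbol from the deposited expression values: the subunit genes Nfkb1, Nfkb2, Rel, Rela and Relb, the cytoplasmic inhibitor genes Nfkbia, Nfkbib and Nfkbie, the nuclear inhibitor-related gene Nfkbiz, and Tnfaip3. They were 10 of 23284 gene symbols, and all 10 were among the 9380 genes expressed highly enough to be tested. They were measured by poly(A) RNA sequencing in macrophages grown from the bone marrow of wild-type mice (BMDMs). Galectin-1 cultures were kept for 24 h with recombinant galectin-1 of the mouse, a lectin that binds galactose-bearing sugars (2 libraries), and vehicle cultures were kept equally long with phosphate-buffered saline (PBS; 2 libraries). Both groups had first been given lipopolysaccharide (LPS), the cell wall component of bacteria that Toll-like receptor 4 senses, for 1 h at 1 µg/ml, so every value below is from LPS-stimulated cells and no unstimulated library was analysed here. The labels do not give the strain, sex or age of the mice, the dose of galectin-1, or whether the libraries came from separate animals or cultures, so that the spread behind the p-values is that between these libraries and may be technical. The comparison asks how galectin-1 alters the character of macrophages.

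NF-kB is a family of dimeric transcription factors. In resting cells IkB proteins hold the dimers in the cytoplasm. LPS activates the IkB kinase (IKK) complex, which marks the IkB proteins for destruction, and the freed dimers enter the nucleus and switch on cytokine genes together with the genes of their own inhibitors. These inhibitors then end the response, which makes Nfkbia and Tnfaip3 classic negative feedback genes of macrophages. Transcript levels do not measure this movement of protein.

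The libraries were those of macrophages by their markers. The summed level of 8 macrophage marker genes was 10120 and 10136 FPKM in galectin-1 libraries, against 9342 and 9346 FPKM in vehicle libraries. Most of this sum was Lyz2, with means of 6246 FPKM with galectin-1 and 5701 FPKM with vehicle. Mertk alone of the list was lower with galectin-1, with means of 16.9 FPKM against 19.1 FPKM with vehicle. FPKM, the unit of the deposited values, is the number of sequenced fragments scaled to transcript length and to how many fragments of that library were mapped. Markers of other cells were low: the summed level of 6 dendritic cell markers was 18.5 to 18.96 FPKM in galectin-1 libraries and 23.8 FPKM in both vehicle libraries, with the progenitor receptor Flt3 under 0.05 FPKM in every library. Fibroblast markers (6 genes) summed to 9.58 to 11.1 FPKM with galectin-1 and 8.37 to 8.85 FPKM with vehicle. Neutrophil markers (5 found of 6) summed to 1.38 to 2.31 FPKM with galectin-1 and 1.34 to 2.92 FPKM with vehicle, with Elane at 0 throughout, and T and B cell markers (7 genes) to 3.79 to 3.89 FPKM with galectin-1 and 3.83 to 4.28 FPKM with vehicle, with Cd3e at 0 throughout. Of all these markers, the dendritic cell gene Fscn1 was the one past the threshold, lower with galectin-1 (log2 fold change -0.47, limma adjusted p = 0.0425), and none of the macrophage markers passed. Depth relative to vehicle replicate 1, read from the steps of low FPKM values, was 1.02 and 0.879 for galectin-1 replicates 1 and 2 and 0.964 for vehicle replicate 2; absolute depth is unknown. The part that these differences in markers and depth have in the results was not tested, and in bulk RNA fewer cells of a type and less RNA per cell cannot be told apart.

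Several members are known targets of NF-kB itself, and the DNA just upstream of their transcription starts is shown because it can hold the sequence that NF-kB binds. RefSeq promoter sequences (GRCm38.p6, which underlies mm10), running from 250 bases before to 50 bases after the start, were held for 7 of the 10 members. The 10-base NF-kB consensus was searched on both strands of these 300 bases. It was present in at least 1 promoter of 5 members (Nfkbia, Tnfaip3, Rel, Nfkb2 and Nfkbie) and in none of those of Rela and Nfkbib. Of all 32851 promoters in the table, 8.46% held it. That share is counted by promoter and the members by gene, so a member with several promoters had more chances of a match. The stretch from 150 bases before the start to the base before it is given for these 5 members and, for contrast, for Rela, 5′ to 3′ on the gene's own strand, with consensus matches of either strand in capitals.
Nfkbia, chr12:55492648-55492797, minus strand: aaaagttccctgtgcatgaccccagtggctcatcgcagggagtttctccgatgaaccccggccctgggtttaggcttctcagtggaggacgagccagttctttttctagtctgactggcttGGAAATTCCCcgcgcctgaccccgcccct
Tnfaip3, chr10:19015411-19015560, minus strand: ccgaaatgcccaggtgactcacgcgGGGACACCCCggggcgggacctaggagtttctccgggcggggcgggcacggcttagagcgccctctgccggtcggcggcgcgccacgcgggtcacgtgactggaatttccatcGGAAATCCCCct
Rel, chr11:23770970-23771119, minus strand: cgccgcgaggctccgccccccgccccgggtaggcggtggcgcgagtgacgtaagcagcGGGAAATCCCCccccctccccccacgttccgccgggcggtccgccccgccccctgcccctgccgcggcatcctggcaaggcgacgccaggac
Nfkb2, chr19:46304587-46304736, plus strand: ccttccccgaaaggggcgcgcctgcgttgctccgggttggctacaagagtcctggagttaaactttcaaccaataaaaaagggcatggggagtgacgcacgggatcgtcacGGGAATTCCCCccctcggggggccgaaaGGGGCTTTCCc
Nfkbie, chr17:45555550-45555699, plus strand: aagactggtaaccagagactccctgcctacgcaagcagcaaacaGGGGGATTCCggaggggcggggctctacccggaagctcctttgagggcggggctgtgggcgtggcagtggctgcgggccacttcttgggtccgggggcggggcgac
Rela, chr19:5637391-5637540, plus strand: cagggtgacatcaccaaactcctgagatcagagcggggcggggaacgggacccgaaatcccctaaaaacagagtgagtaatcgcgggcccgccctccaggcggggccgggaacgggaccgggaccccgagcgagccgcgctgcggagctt
In Nfkbia the match lay at -29 to -20, counted from the start site. Tnfaip3 had a match at -125 to -116 and a second at -12 to -3. In Rel the capitals run from -92 to -82 and cover 2 overlapping matches. Nfkb2 had overlapping matches from -39 to -29 and another at -11 to -2. The match of Nfkbie lay at -106 to -97. Nfkb2 and Tnfaip3 had further promoters in the table (3 and 2 in all), of which the one at the gene's most upstream start in the table is printed. A match describes the letters and does not show binding.

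No member passed the threshold in either direction after galectin-1 (limma on log2(FPKM + 1), Benjamini-Hochberg adjusted p under 0.05 over all 9380 tested genes). Over all tested genes 112 passed, which is 1.19%, with 0.608% higher and 0.586% lower. At an unadjusted p under 0.05, 2 of the 10 members counted, Nfkb1 and Nfkbiz, both with positive differences, against 23.2% of all tested genes. The median difference of the members was -0.0023 on the log2 scale, against 0.0024 over all tested genes, with 5 positive and 5 negative. The median size of the difference regardless of sign was 0.06 for the members and 0.09 for all tested genes, which were not matched for level. The member nearest to a call was Nfkb1, which had a 13.3% higher level with galectin-1.

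**Figure D1:**
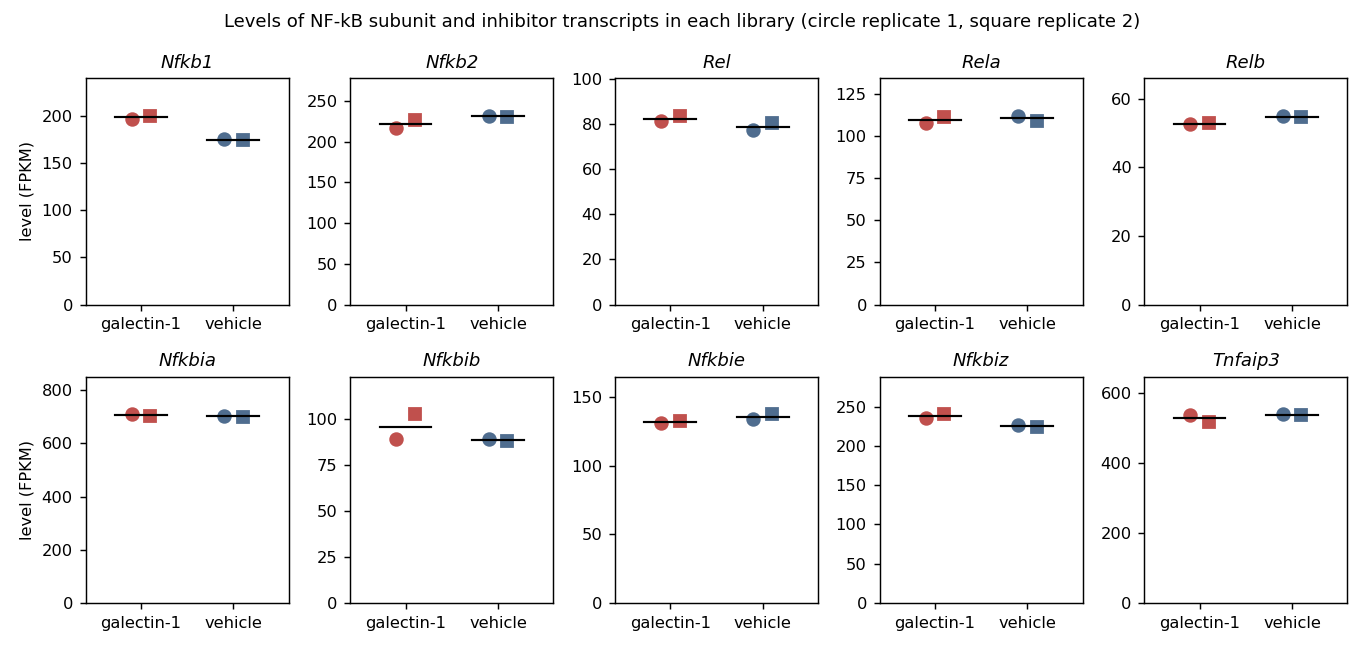
Level in FPKM of each member in every library, galectin-1 left and vehicle right, with a circle for replicate 1, a square for replicate 2 and a line at the group mean. Each axis starts at 0; the libraries of a gene lie within 1.16-fold of each other, and Nfkb1 shows the clearest gap between groups, with 197 and 199 FPKM for galectin-1 and 175 and 174 FPKM for vehicle.

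Among the subunits, Nfkb1 encodes the precursor of the p50 subunit, which lacks a transactivation domain and pairs most often with the product of Rela. The gene lies on chromosome 3, from 135584655 to 135691969 on the minus strand. Nfkb1 had 197 and 199 FPKM in galectin-1 libraries, against 175 and 174 FPKM in vehicle libraries. Both galectin-1 libraries were above both vehicle libraries, and the gap between the groups was larger than the spread within either. The group means were 198 ± 1.98 FPKM with galectin-1 and 175 ± 0.307 FPKM with vehicle (SD, n = 2 each). The log2 fold change was 0.18 with a standard error of 0.03 and a limma adjusted p of 0.0555, just over the threshold. The unadjusted 95% confidence interval of the change ran from 7.87% to 19.1%. Its side of the threshold varied with the settings: the adjusted p of Nfkb1 in limma was 0.0289 when entries of small RNAs were left out and 0.0432 when a mean of 5 FPKM or more was required, but 0.137 with no filter on low values and 0.166 without the variance trend. Without any 1 of the libraries, Nfkb1 kept a log2 fold change of 0.17 to 0.19, with limma adjusted p from 0.180 to 0.232.

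Nfkb2 encodes the precursor of p52, the subunit of the alternative NF-kB pathway, and lies on chromosome 19, from 46300994 to 46312400 on the plus strand. Its level was 217 and 226 FPKM in galectin-1 libraries, against 231 and 230 FPKM in vehicle libraries. The galectin-1 libraries were both lower, but they differed from each other by more than the nearer of them differed from vehicle. The difference was -0.06 (standard error 0.03, limma adjusted p = 0.339), and its interval ran from -9.32% to 1.51%. In the GENCODE M21 annotation, 531 of the 4584 exonic bases of Nfkb2 also lie in the antisense gene AC114539.1 and 299 in Psd on the other strand. The sources used here do not say whether the authors' values separate the strands. Psd was listed at 2.61 and 3.26 FPKM with galectin-1 and at 2.90 and 3.60 FPKM with vehicle, far below Nfkb2. No level is given here for AC114539.1, which shares more bases than Psd does. The part of these overlaps in the value of Nfkb2 was not tested.

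Rela encodes p65, the main activating subunit in LPS-stimulated macrophages (chromosome 19, 5637442 to 5648134, plus strand). It had 108 and 111 FPKM in galectin-1 libraries, against 112 and 109 FPKM in vehicle libraries, so that the groups overlapped. The difference was -0.01 (standard error 0.03, limma adjusted p = 0.837), with an interval from -6.75% to 5.05%. Rel encodes c-Rel, the subunit required for full induction of Il12b in mouse macrophages (chromosome 11, 23736847 to 23770969, minus strand). It had 81.2 and 83.4 FPKM with galectin-1 and 77.3 and 80.2 FPKM with vehicle. The groups did not overlap, but the vehicle replicates lay further apart than the nearest libraries of the 2 groups did. Its difference was 0.06 (standard error 0.04, limma adjusted p = 0.361; interval -1.93% to 11.4%). Relb, whose product is the partner of p52 (chromosome 7, 19606217 to 19629438, minus strand), had 52.5 and 52.8 FPKM with galectin-1 and 54.9 and 54.7 FPKM with vehicle. Here both groups were tight and did not overlap, yet the difference of -0.06 (standard error 0.04) had a limma adjusted p of 0.384. limma moderates the spread of a gene towards that of genes of like level, so a close pair of replicates does not by itself make a call.

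Of the cytoplasmic IkB proteins, Nfkbia encodes IkB alpha, the inhibitor that is destroyed within minutes of LPS and then made anew under the control of NF-kB (chromosome 12, 55489409 to 55492647, minus strand). Nfkbia was the most abundant member, with 709 and 704 FPKM in galectin-1 libraries, against 702 and 701 FPKM in vehicle libraries. All 4 values lay within 1.01-fold. The difference was 0.01 (standard error 0.02, limma adjusted p = 0.845), and the interval bounded it between -3.53% and 5.14%. Nfkbia had a difference of -0.04 after quantile normalization and of 0.0039 after median-ratio scaling, so its sign turned with the former and was kept with the latter. Nfkbie, the gene of IkB epsilon (chromosome 17, 45555700 to 45563169, plus strand), had 131 and 132 FPKM with galectin-1 and 134 and 137 FPKM with vehicle. The groups did not overlap, with galectin-1 lower by -0.04 on the log2 scale (standard error 0.03, limma adjusted p = 0.445; interval -8.14% to 2.35%).

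Nfkbib, the gene of IkB beta (chromosome 7, 28758251 to 28766644, minus strand), varied most between replicates. It had 89.2 and 102 FPKM in galectin-1 libraries, against 89.1 and 88.2 FPKM in vehicle libraries. Galectin-1 replicate 2 stood alone, and the other 3 libraries lay close together. The difference of 0.11 (standard error 0.07, limma adjusted p = 0.376; interval -3.64% to 20.5%) rested on that library, since it was 0.0093 without galectin-1 replicate 2 and 0.21 without galectin-1 replicate 1. In GENCODE M21, of the 2169 exonic bases of Nfkbib, 314 are shared with Ccer2 and only 42 with Sirt2, both on the other strand. No level is given here for Ccer2. Sirt2, a deacetylase gene, had 84.1 and 89.9 FPKM with galectin-1 and 77.6 and 80.6 FPKM with vehicle, so the library highest for Nfkbib was also the highest for Sirt2. The part of these overlaps in the value of Nfkbib was not tested.

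Nfkbiz encodes IkB zeta, a nuclear IkB protein induced by LPS that promotes a second wave of genes such as Il6 and Il12b in mouse macrophages (chromosome 16, 55811375 to 55838954, minus strand). Nfkbiz had 235 and 240 FPKM in galectin-1 libraries, against 226 and 224 FPKM in vehicle libraries. The groups did not overlap. The difference of 0.08 (standard error 0.03) had an unadjusted p of 0.0363 and an adjusted p of 0.187 in limma, and the interval ran from 0.490% to 11.02%. After quantile normalization the difference of Nfkbiz was 0.04. Tnfaip3 encodes A20, an enzyme that edits ubiquitin chains on signalling proteins and so turns NF-kB signalling off (chromosome 10, 19000910 to 19015410, minus strand). It had 537 and 516 FPKM with galectin-1 and 538 and 535 FPKM with vehicle. The groups overlapped, and the difference was -0.03 (standard error 0.03, limma adjusted p = 0.636; interval -6.76% to 3.34%).

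**Figure D2:**
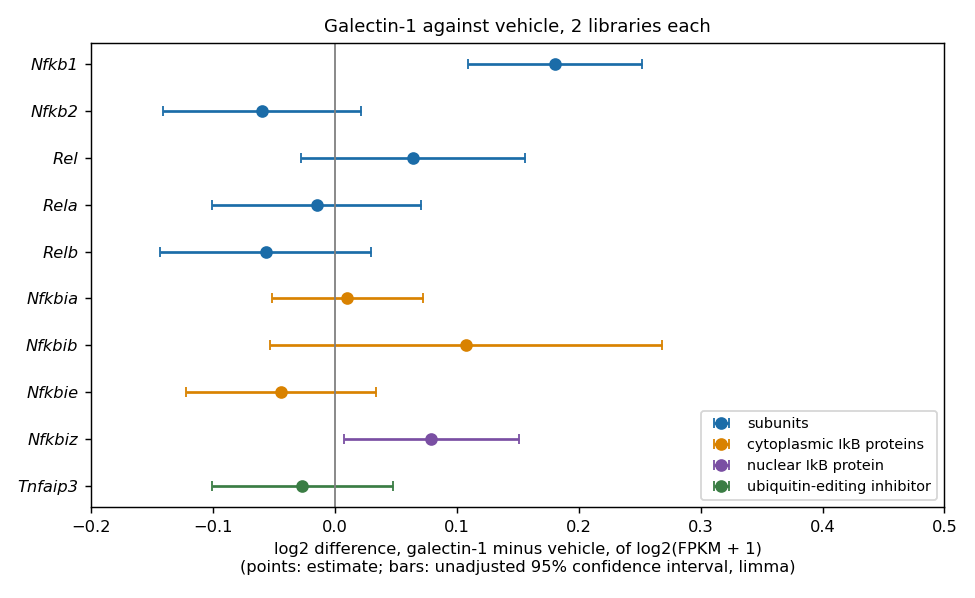
Difference of each member on the log2 scale, galectin-1 minus vehicle, with the unadjusted 95% confidence interval from limma, coloured by role. The intervals of Nfkb1 (0.18) and Nfkbiz (0.08) lie above 0, the other 8 span 0, and no member passed after adjustment.

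The libraries of the 2 groups did not overlap for 8 members, 5 of them higher and 3 lower with galectin-1. This count is to be read beside the background, since 55.4% of all tested genes showed no overlap, 29.1% higher and 26.2% lower. The replicates of the members were close: the pooled replicate SD on the log2 scale had a median of 0.02 over the 10 members and 0.06 over all tested genes. These sets were not matched for level. The members ranked from 133 to 1464 by level, while the tested genes reach down to a mean of 1 FPKM. The unadjusted intervals of all 10 members lay between -9.46% and 20.5%, so changes beyond those bounds are outside the intervals of every member, while smaller ones cannot be read as absent.

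All 10 members were expressed well above the middle of the transcriptome. By mean FPKM over the 4 libraries they ranked from 133 (Nfkbia) to 1464 (Relb) among the 9380 tested genes. The order was Nfkbia at 704 FPKM, Tnfaip3 at 531 FPKM, Nfkbiz at 231 FPKM, Nfkb2 at 226 FPKM, Nfkb1 at 186 FPKM, Nfkbie at 134 FPKM, Rela at 110 FPKM, Nfkbib at 92.2 FPKM, Rel at 80.5 FPKM and Relb at 53.7 FPKM. Neighbours in this order had separate ranges over the 4 libraries, with the exception of Nfkbiz and Nfkb2, whose ranges overlapped. Nfkbia and Tnfaip3 stood above every subunit gene in each library. FPKM is scaled to transcript length, but levels of different genes can be set side by side only roughly. The annotation and use of strand behind the values are not known, and exons of Nfkb2 and Nfkbib overlap other genes.

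A ratio within a library is unaffected by a single scaling factor for that library, though quantile normalization can alter it. The summed level of the 3 cytoplasmic IkB genes was 929 and 938 FPKM in galectin-1 libraries, against 925 and 927 FPKM in vehicle libraries. That of the 5 subunit genes was 655 and 673 FPKM with galectin-1 and 650 and 649 FPKM with vehicle. The ratio of IkB to subunit transcripts was 1.42 and 1.39 with galectin-1 and 1.42 and 1.43 with vehicle, so the balance of inhibitor and subunit transcripts differed by -1.31% between the group means. The difference of this ratio, -0.0187, was -0.0065 without galectin-1 replicate 2, -0.0308 without galectin-1 replicate 1 and -0.0302 after quantile normalization. Nfkbia made up 76.3% and 75.0% of the IkB sum with galectin-1 and 75.9% and 75.7% with vehicle.

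Within the subunits, the ratio of the precursor genes stood apart between the groups, although neither gene passed the test. The ratio of Nfkb2 to Nfkb1 was 1.10 and 1.13 in galectin-1 libraries, against 1.32 in both vehicle libraries. The groups did not overlap, at 1.12 ± 0.0229 with galectin-1 and 1.32 ± 0.000924 with vehicle (SD, n = 2 each), a difference of -0.20. It ranged from -0.22 to -0.19 when 1 library was left out and was -0.20 after quantile normalization. This ratio restates the log2 differences of Nfkb1 (0.18) and Nfkb2 (-0.06). The groups did not overlap for the other ratios either, nor for 55.4% of single tested genes. Nfkb1 supplied 30.0% and 29.6% of the subunit sum with galectin-1 and 26.9% in both vehicle libraries, and Nfkb2 supplied 33.1% and 33.6% with galectin-1 and 35.6% and 35.5% with vehicle. The ratio of Rel to Rela was 0.755 and 0.751 with galectin-1 and 0.691 and 0.735 with vehicle. Here the vehicle replicates differed by more than the gap to the galectin-1 libraries, and the difference of 0.04 came to 0.0264 after quantile normalization, to 0.0181 with vehicle replicate 1 left out and to 0.0623 with vehicle replicate 2 left out. An exact permutation test of 2 against 2 libraries cannot give a 2-sided p below 0.333, so the ratios are given without a test.

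**Figure D3:**
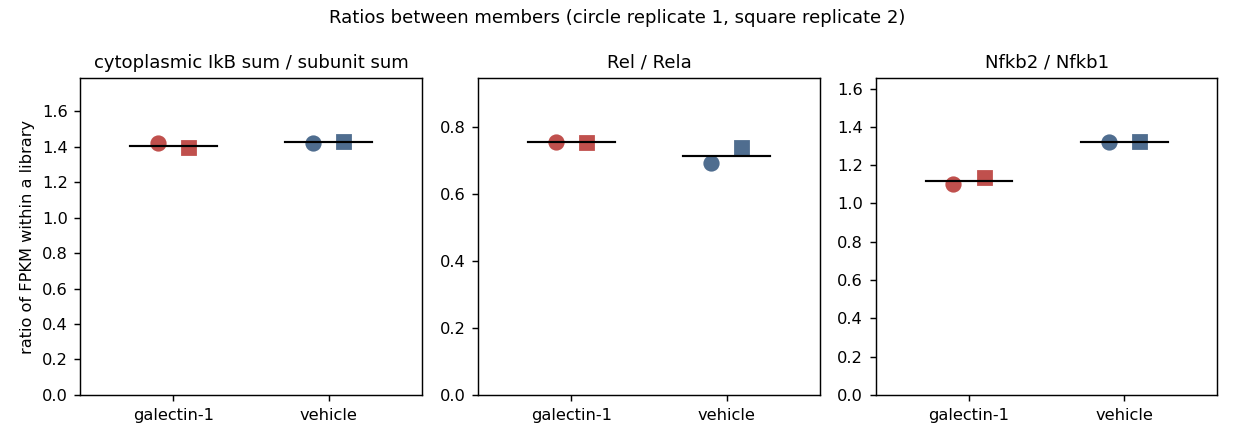
Ratios of FPKM within each library, galectin-1 left and vehicle right, with a circle for replicate 1, a square for replicate 2 and a line at the group mean. The ratio of Nfkb2 to Nfkb1 stands apart between groups (1.10 and 1.13 for galectin-1, 1.32 in both vehicle libraries), while the ratio of IkB to subunit transcripts lies between 1.39 and 1.43 in all 4 libraries.

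The pathway around these members was described from gene lists. Of 3 other IkB family genes, none passed, and 1 had a positive difference (median -0.04). Bcl3, whose product acts with p50 and p52 dimers in the nucleus, had 85.7 and 91.3 FPKM in galectin-1 libraries, against 85.4 and 84.9 FPKM in vehicle libraries (0.06, limma adjusted p = 0.464). Nfkbid, the gene of another nuclear IkB protein, had differences within the vehicle spread, at 11.2 and 11.4 FPKM with galectin-1 and 13.2 and 11.1 FPKM with vehicle. Nfkbil1, a gene named for its similarity to IkB, had 5.20 and 5.42 FPKM with galectin-1 and 5.24 and 5.76 FPKM with vehicle (-0.04, limma adjusted p = 0.788).

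Among 9 genes of the IKK complex, the related kinases and their adaptors, none passed in limma, 3 had an unadjusted p under 0.05 (all negative) and the median difference was -0.13, against 0.0024 over all tested genes. Ikbke, the gene of an IKK-related kinase induced by LPS, had 145 and 151 FPKM with galectin-1 and 164 and 177 FPKM with vehicle (-0.20, standard error 0.05, limma adjusted p = 0.0935). Ikbkb, the gene of the kinase that phosphorylates IkB alpha, had 28.9 and 29.0 FPKM with galectin-1 and 31.9 and 33.9 FPKM with vehicle (-0.18, limma adjusted p = 0.113). Tbkbp1, an adaptor gene of TBK1, had 7.34 and 7.86 FPKM with galectin-1 and 8.64 and 9.80 FPKM with vehicle (-0.25, limma adjusted p = 0.149). These 3 genes were named for having the smallest p of the list, and in each the galectin-1 libraries lay below the vehicle libraries. Such separation, with galectin-1 lower, was seen in 26.2% of all tested genes. Of the list, 8 of the 9 genes had negative differences, against 4626 of all 9380 tested genes. No call follows from these counts, as 23.2% of all tested genes had an unadjusted p under 0.05.

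Of 17 genes for TAK1, TRAF proteins and ubiquitin ligases, which link receptors to IKK, none passed in limma, 7 had an unadjusted p under 0.05 (3 positive and 4 negative, beside 23.2% of all tested genes) and the median was -0.04. Tab2, the gene of a ubiquitin-binding partner of TAK1, had 156 and 158 FPKM with galectin-1 and 143 and 145 FPKM with vehicle (0.12, limma adjusted p = 0.0995). Birc2, a ubiquitin ligase gene, had 22.3 and 22.8 FPKM with galectin-1 and 25.5 and 26.9 FPKM with vehicle (-0.21, limma adjusted p = 0.0977). Ripk1, a kinase and scaffold gene, had 50.7 and 47.7 FPKM with galectin-1 and 42.6 and 43.97 FPKM with vehicle (0.18, limma adjusted p = 0.107). Of 5 genes that degrade phosphorylated IkB none passed (median -0.04); Cul1, a scaffold gene of the ligase, had 33.6 and 34.0 FPKM with galectin-1 and 31.0 and 31.7 FPKM with vehicle (0.11, limma adjusted p = 0.195). Fbxw11, which encodes the subunit that recognises phosphorylated IkB, had a difference of -0.06, and Rbx1, which encodes the ring subunit, of -0.08 (limma adjusted p = 0.445 and 0.459). Of 15 tested other negative regulators (17 listed) none passed, with 3 at an unadjusted p under 0.05 in limma and a median of -0.0039. Socs1, the gene of a feedback inhibitor of cytokine signalling, had 298 and 301 FPKM with galectin-1 and 284 and 276 FPKM with vehicle (0.10, limma adjusted p = 0.140). Rnf11, the gene of a ubiquitin ligase that acts with A20, had 21.9 and 21.8 FPKM with galectin-1 and 20.3 and 18.7 FPKM with vehicle (0.15, limma adjusted p = 0.175). Cyld, a deubiquitinase gene, had 5.45 FPKM in both galectin-1 libraries and 6.25 and 6.35 FPKM with vehicle (-0.18, limma adjusted p = 0.189).

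Of 34 tested NF-kB target genes (38 listed), 3 rose, 3 fell and 28 did not pass, with a median of 0.02. Over all tested genes 0.608% were called higher and 0.586% lower. The target list was drawn up with earlier results of these data known, so its counts and direction are not independent evidence. The 3 that rose are the chemokine genes Ccl2 (0.36), Ccl7 (0.38) and Cxcl2 (0.39), with limma adjusted p from 0.0312 to 0.0374, and the 3 that fell are the cytokine genes Il1a (-0.36), Il1b (-0.50) and Il12b (-0.59), with limma adjusted p from 0.00612 to 0.0432. Ccl2 and Ccl7 are near relatives whose reads may be divided between them. Leaving out 1 library ended all of these calls except that of Il1b, which passed in 3 of 4 such fits and had a limma adjusted p of 0.0553 without vehicle replicate 2. None of the 6 passed in limma without the variance trend (adjusted p = 0.138 for each) or with no filter on low values, and quantile normalization ended the call of Cxcl2 (limma adjusted p = 0.0551). At an unadjusted p under 0.05, 20 of the 34 counted (11 positive, 9 negative), where the share over all tested genes was 23.2%; the list's share is a description only, given how it was chosen. In the main fit, calls among these targets went in both directions and none of the subunit or inhibitor transcripts passed. Nfkb1 was close to the threshold, at a limma adjusted p of 0.0555. Whether the targets differ from the members was not tested.

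Of 5 genes known to depend on IkB zeta in mouse macrophages, 3 were tested. Il12b fell, with 12.5 and 14.5 FPKM in galectin-1 libraries, against 21.1 and 20.5 FPKM in vehicle libraries. Il6 had 263 and 255 FPKM with galectin-1 and 295 and 293 FPKM with vehicle (-0.18, limma adjusted p = 0.0562), and Lcn2, the gene of an iron-sequestering protein, had 22.8 and 24.3 FPKM with galectin-1 and 29.2 and 33.2 FPKM with vehicle (-0.39, limma adjusted p = 0.0650). For all 3 the galectin-1 libraries lay below the vehicle libraries. Those of Nfkbiz, which was not called, lay above, with 235 and 240 FPKM for galectin-1 and 226 and 224 FPKM for vehicle. Over all tested genes, 26.2% were lower and 29.1% higher without overlap of the groups. The 3 genes are also on the target list, which was drawn up with earlier results of these data known. The call of Il12b was lost without any 1 of the libraries, with limma adjusted p from 0.0956 to 0.186. In the other direction, Il6 and Lcn2 also passed when small RNA entries were left out (limma adjusted p = 0.0282 for Il6 and 0.0301 for Lcn2), which made 3 lower, and Il6 passed when a mean of 5 FPKM or more was required (0.0440).

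**Figure D4:**
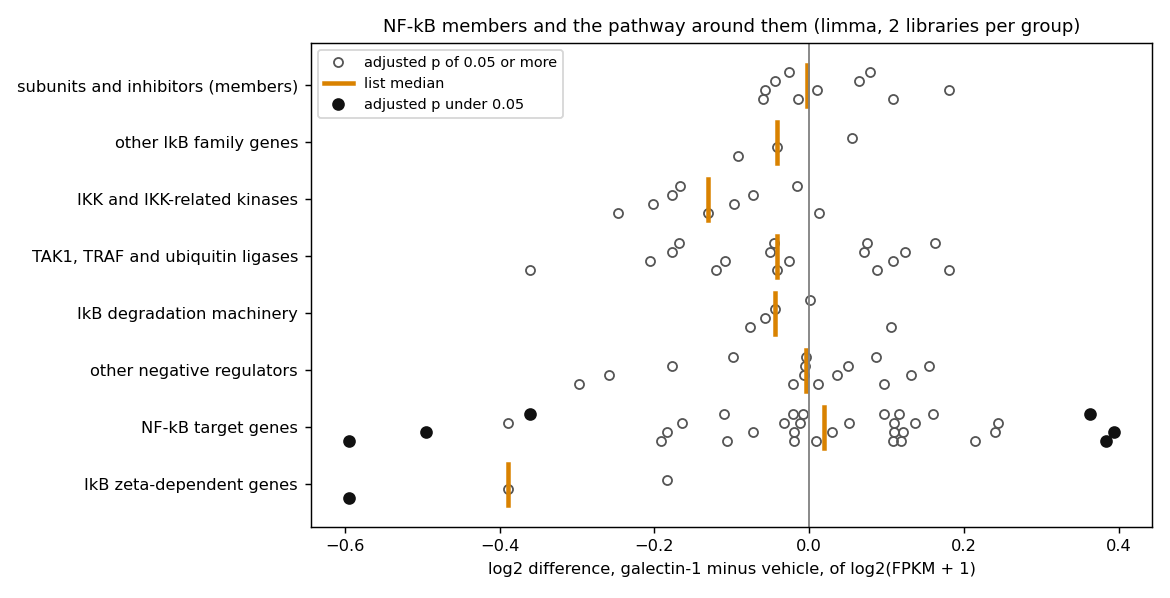
Difference of each tested gene on the log2 scale, galectin-1 minus vehicle, for the 10 members and 7 pathway lists; filled points passed a limma adjusted p of 0.05 and bars mark list medians. Calls occur among the target genes (3 higher and 3 lower) and, for Il12b, in the IkB zeta list, whose genes are also targets, and the IKK list has the most negative median among the signalling lists (-0.13).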

How the data were processed

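Poly(A) RNA of mouse macrophages was sequenced in 2 galectin-1 and 2 vehicle libraries, grouped by sample title. The authors deposited FPKM, 1 value per gene symbol and library, in 23284 rows. Per the submitters' processing notes the build was mm10 and the tools were Cufflinks 2.2.1, TopHat2 2.0.13, SAMtools 0.1.19 and Bowtie2 2.2.3, with no roles named; the sources used here do not give the annotation, filters, use of strand or any scaling between libraries.

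The deposited FPKM were put on the log2 scale after adding 1. The 9380 genes whose mean reached 1 FPKM were fitted in R 4.3.3 by limma 3.58.1, with a variance trend, 2-sided, Benjamini-Hochberg adjusted p under 0.05, 2 residual and 3.89 prior degrees of freedom. Fold changes on this scale understate changes of low genes. The replicates were compared first: Pearson correlations of log2 values were 0.9825 within vehicle and 0.9876 within galectin-1, and no files were identical. Between the groups the correlations ran from 0.9789 to 0.9859. Vehicle replicate 2 correlated more closely with both galectin-1 libraries (0.9859 and 0.9834) than with vehicle replicate 1. The members, lists and tests were chosen with earlier results of these data known. The text names all 10 members, the called genes of each pathway list and up to 3 of smallest p. Of 132 list symbols, 131 were found, 2 of them under another symbol. Gene coordinates are RefSeq's for GRCm38.p6, counted from 1.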

Additional observations from a re-analysis of the deposited data

How the results depend on the processing

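Alternatives were another pseudocount, 2 other filters, 2 other scalings, limma without the trend, a replicate block, leaving out small RNA entries and leaving out each library. Across these 12 fits the sign was kept in all for Nfkb1, Nfkb2, Rel, Relb, Nfkbib, Nfkbie and Nfkbiz, in 11 for Nfkbia and Tnfaip3 and in 10 for Rela; these differences were not called, and the sign of Tnfaip3 and Rela turned in fits that left out 1 library. The count of members called higher was 1 (Nfkb1) with a minimum mean of 5 FPKM, with the replicate block and without small RNA entries, and 0 in the other 9 fits; the count lower was 0 throughout. Over all genes the counts were 127 higher and 99 lower with a minimum mean of 5 FPKM, 189 and 176 without small RNA entries, 1 and 2 with no filter, 1 and 1 without the trend, and 24 higher after quantile normalization (47 lower). With 1 library left out they ranged from 4 to 9 higher and from 3 to 12 lower. The causes were not tested. Labels do not pair the libraries, and deviations of same-numbered libraries had a correlation of 0.0114 across genes. With the replicate block 123 genes were higher and 117 lower, and Nfkb1 (limma adjusted p = 0.0478), Ikbke (0.0427), Il6 (0.0420) and Lcn2 (0.0256) passed, making 1 IKK gene and 3 IkB zeta-dependent genes lower. Among NF-kB target genes the counts ranged from 0 to 7 higher and 0 to 7 lower. The differences of the 3 ratios kept their signs after quantile normalization and without any 1 library; with 2 libraries a group, the second follows from groups that do not overlap. With 2 libraries per group and unknown absolute depth, differences smaller than the intervals given are not resolved.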
